A study of Arabidopsis thaliana with 6 samples.

Results

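The UDP-glycosyltransferases (UGTs) measured here are 47 Arabidopsis thaliana genes whose RefSeq symbol is UGT followed by a number and which have a single-gene probe set on the ATH1 array, among 13355 genes with such a probe set. The choice used names only and no measured value, but it was made with earlier results of these data known. Each of the 47 had 1 probe set, so the choice of the brightest probe set per gene made no difference. The RefSeq table holds 58 such symbols. Of the other 11, 4 share a probe set with another gene and 7 had none in the annotation used, and these 11 were not analysed here. The arrays compare the aerial parts of 10-day-old seedlings of 2 genotypes in the Columbia-0 background, 3 arrays of wild type and 3 of SPT4-R3, with no other treatment. SPT4-R3, also labelled a mutant, is RNA interference (RNAi) line 3 against SPT4, so the group stands for 1 transgenic line. The sources used here do not name the promoter of its construct. SPT4 forms a complex with SPT5 that travels with RNA polymerase II as transcripts are elongated. Replicates are labelled biological, with no mention of separate sowings, so the p-values reflect the spread among these 6 samples alone.

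UGT enzymes move a sugar, most often glucose from UDP-glucose, onto small acceptor molecules. In plants the acceptors include hormones, flavonoids, lignin precursors, glucosinolate precursors and foreign compounds, and the added sugar usually makes the acceptor more soluble and less active and marks it for storage in the vacuole. The number in a UGT name stands for a family by sequence likeness, the letter for a subfamily and the last number for the gene.

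The values are the authors' log2 signals, with array medians from 6.49 to 6.53. Over 22746 plant probe sets the correlation was 0.998 to 0.999 within a genotype and 0.976 to 0.977 between genotypes. The RNAi target SPT4-1 (AT5G08565) read 5.79, 6.05 and 6.03 in wild type against 5.0, 4.89 and 4.97 in SPT4-R3. It dropped by 1.0 ± 0.0753 log2 (SE, n = 3 per genotype, adjusted p = 2.15e-06 in limma). Whether its probes lie inside the RNAi fragment was not analysed here, nor was any other SPT4 gene. The bioB, bioC and bioD controls, RNAs of bacterial sequence added at hybridisation, had a mean of 9.01 ± 0.0302 (SD, n = 3) in wild type against 8.62 ± 0.114 in SPT4-R3 (exact permutation p = 0.1, two-sided). The cre controls had a mean of 12.995 ± 0.0638 in wild type against 12.94 ± 0.125 in SPT4-R3. Their values overlapped, with a difference of -0.05 (exact permutation p = 0.7, two-sided). The part of the controls in the results was not tested. The difference between signals of the 3' and 5' ends of control transcripts, a sign of RNA quality, overlapped between genotypes for GAPDH, actin and ubiquitin (exact permutation p of 0.3 to 0.6, two-sided). Over the 6 arrays the 3' end exceeded the 5' end by 2.685 to 2.965 log2 for actin. The excess was 0.955 to 1.205 for GAPDH and 0.85 to 0.965 for ubiquitin. For the gene lists here and below, measured means having a single-gene probe set in the annotation used. That annotation names no gene for 8730 of the 22746 plant probe sets. Listed genes it leaves out were not analysed here, and the array may hold probes for them. Among markers of green tissue, 3 of 12 were measured. LHCB4.1, LHCB4.2 and RCA gave signals of 12.8 to 14.4, with called differences of -0.51, -1.14 and -0.27. Among all plant probe sets 23.5% were called lower. Among root markers, 4 of 7 were measured, with PYK10 at 11.8 and EXPA7, EXPA18 and AT4G26010 at 4.23 to 5.15 averaged over the arrays, and none passed the test in limma, nor had an unadjusted p under 0.05. In bulk tissue, fewer cells of a type and less RNA per cell cannot be told apart.

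Most of the UGT genes that differed between the genotypes were higher in SPT4-R3. At an adjusted p under 0.05 in limma, 20 UGT genes rose, 6 fell and 21 did not pass the test, which is 55.3% of the 47 called, against 49.9% of all plant probe sets and 46.3% of the 13355 genes. The share that rose was 42.6%, against 26.4% of all plant probe sets and 24.7% of genes. The share that fell was 12.8%, against 23.5% and 21.6%. The median difference over the 47 genes was 0.06, and that of all plant probe sets was -0.003. Called differences ran from 0.17 to 1.40 on the log2 scale in the genes that rose and from -0.19 to -0.83 in those that fell. Differences of at least 0.5 were called for 10 higher and 3 lower UGT genes, against 10.1% and 9.07% of all plant probe sets. Values of the genotypes did not overlap for 20 UGT genes higher and 8 lower in SPT4-R3, against 28.9% and 26.3% of all plant probe sets. With bioB, bioC and bioD as the reference for each array, the median of all plant probe sets was 0.39, with 41 higher and 1 lower UGT genes, against 76.5% and 6.99% of all plant probe sets. The 20 genes that rose kept their call on this scale, as they did with the dap, lys, phe and thr controls as the reference, where the median of all plant probe sets was 0.15. Of the 6 that fell, UGT71C4 alone kept its call under both. Both references add a positive amount to every difference, 0.39 and 0.15, which favours rises and works against falls. Kept rises and lost falls under them are therefore no separate check of the genes. The directions below are on the deposited scale.

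**Figure D1:**
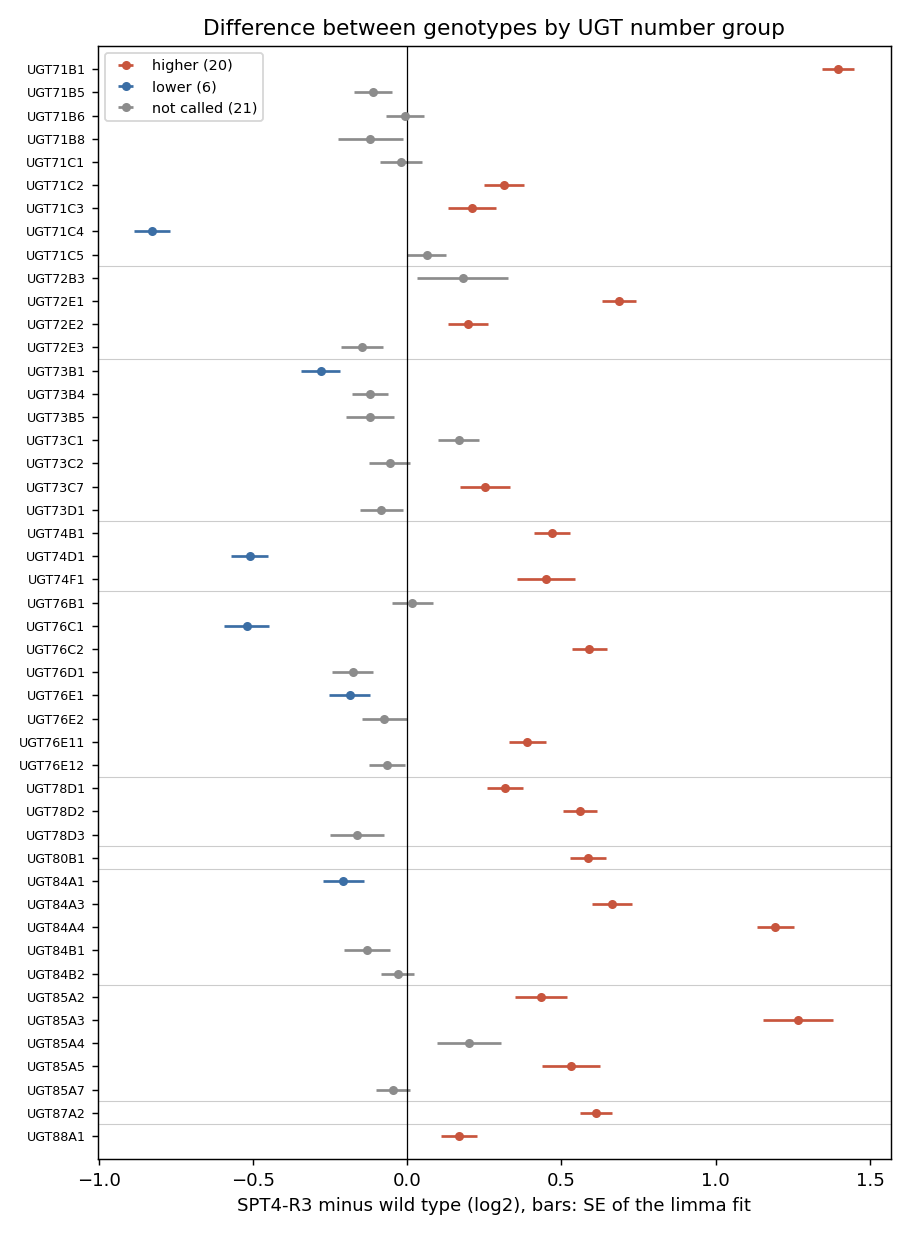
Difference between genotypes for each of the 47 UGT genes, as SPT4-R3 minus wild type on the log2 scale, with bars for the SE of the limma fit; genes are grouped by UGT number and coloured by call. The 20 genes called higher reach 1.40 in UGT71B1, and the 6 called lower reach -0.83 in UGT71C4.

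The calls followed the signal of the probe set. Plant probe sets were divided into 4 signal classes of like size by their mean over the 6 arrays, with boundaries at 4.43, 6.53 and 8.31. Probes bind with different strength, so this position describes the measurement and does not rank transcripts. In the highest class lay 10 UGT genes, of which 8 rose and 2 fell, against 38.3% and 34.1% of all plant probe sets in that class. In the third class 3 of 8 rose and 2 fell, against 36.2% and 27.4%. In the second class, which held 21 UGT genes, 9 rose and 1 fell, against 25.6% and 23.7%. In the lowest class 1 of 8 fell (8.77% of all plant probe sets there) and limma called none higher (5.54%), while 1 was higher at an unadjusted p under 0.05. The 3 dimmest were UGT76E12 (3.53 to 3.73 over the 6 arrays), UGT84B2 (3.80 to 3.91) and UGT71C1 (3.87 to 4.12), near the trp controls, bacterial probe sets that match no plant transcript and read between 3.46 and 3.84. Their differences of -0.07, -0.03 and -0.02 did not pass the test, and changes in genes this dim could be missed.

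**Figure D2:**
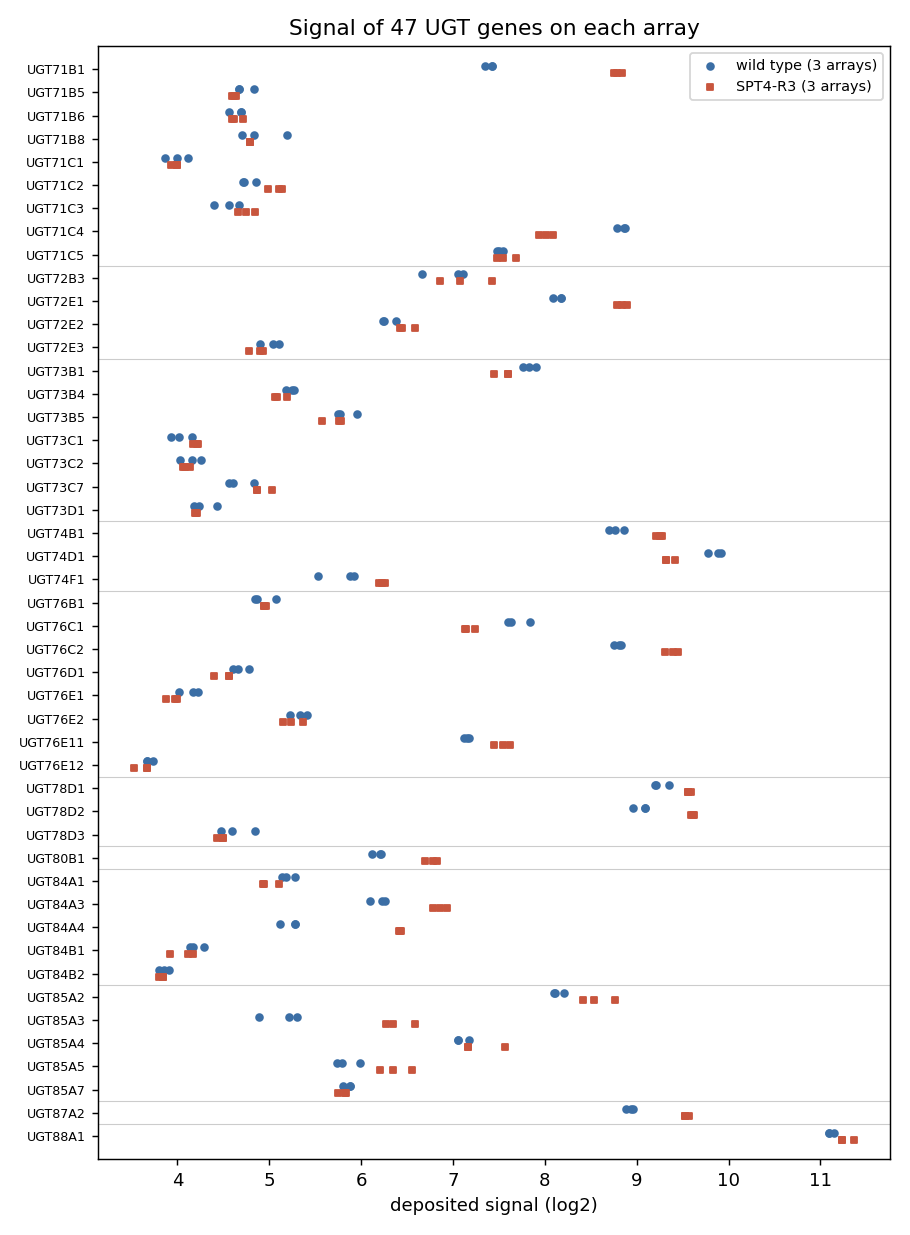
Deposited log2 signal of each UGT gene on every array, with circles for the 3 wild-type and squares for the 3 SPT4-R3 arrays. UGT88A1 lies farthest right at 11.1 to 11.4, and UGT76E12 farthest left at 3.53 to 3.73.

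**Figure D3:**
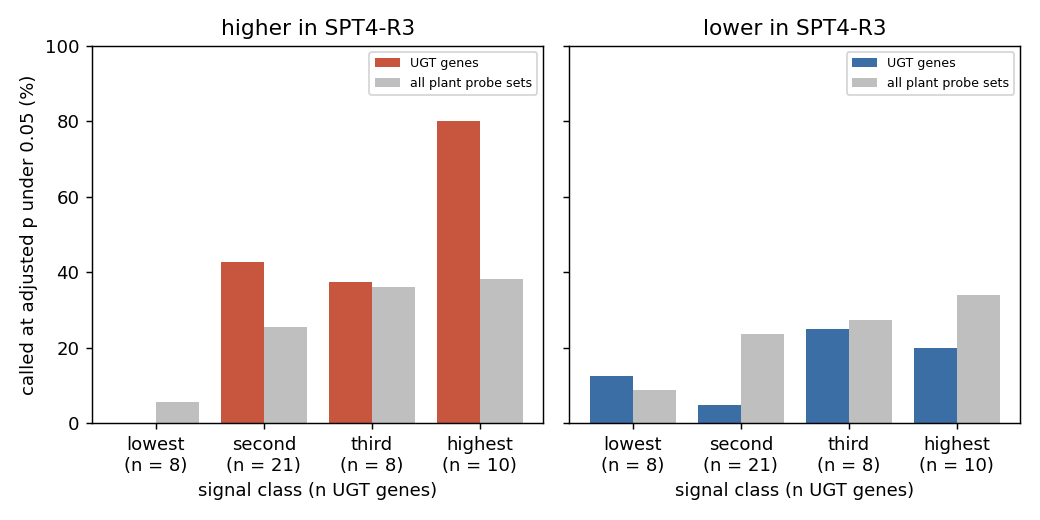
Percent of UGT genes (coloured bars) and of all plant probe sets (grey bars) called higher or lower at an adjusted p under 0.05, by class of mean signal. In the highest class 80% of 10 UGT genes were higher and 20% lower, against 38.3% and 34.1% of all plant probe sets.

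Among the UGT84A and UGT72E genes, for the glucosylation of hydroxycinnamic acids and lignin precursors, UGT84A3, UGT84A4, UGT72E1 and UGT72E2 were called higher. UGT84A1 was called lower and UGT72E3 was not called. Of all plant probe sets, 26.4% were called higher and 23.5% lower. UGT84A enzymes join glucose to sinapic acid and its relatives, which gives the activated esters used for sinapoylmalate. UGT84A2 of this subfamily had no probe set in the annotation used and was not analysed here. UGT84A4 (AT4G15500) read 5.28, 5.12 and 5.28 in wild type against 6.41, 6.43 and 6.42 in SPT4-R3. All 3 SPT4-R3 values lay far above wild type and nearly coincided. It rose by 1.19 ± 0.0594 (SE), or 2.29-fold, with an adjusted p of 1.24e-07. UGT84A3 (AT4G15490) read 6.26, 6.10 and 6.23 in wild type against 6.78, 6.86 and 6.94 in SPT4-R3. These groups were also apart, and the gene rose by 0.66 ± 0.0649 (1.58-fold, adjusted p = 1.43e-05). UGT84A1 (AT4G15480) went the other way on the deposited scale, reading 5.28, 5.14 and 5.18 in wild type against 4.93, 5.11 and 4.94 in SPT4-R3. The gap between the genotypes was narrow, since SPT4-R3 replicate 2 came within 0.03 of the lowest wild-type array. UGT84A1 fell by 0.21 ± 0.0668 (adjusted p = 0.0265), and this call was lost without SPT4-R3 replicate 1 (adjusted p = 0.0957) or 3 (0.0972) and without wild-type replicate 1 (0.0852) or 3 (0.0562); centring on bioB, bioC and bioD turned it to 0.19.

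The UGT72E enzymes glucosylate coniferyl and sinapyl alcohols and aldehydes, the building blocks of lignin. UGT72E1 (AT3G50740), which acts on the aldehydes, read 8.18, 8.18 and 8.09 in wild type against 8.89, 8.78 and 8.84 in SPT4-R3. No values were shared, and it rose by 0.69 ± 0.0559 (SE), or 1.61-fold, with an adjusted p of 3.79e-06. UGT72E2 (AT5G66690), which acts mainly on the alcohols, read 6.25, 6.24 and 6.38 in wild type against 6.42, 6.45 and 6.59 in SPT4-R3. The genotypes lay side by side with a gap of 0.04. Its rise of 0.20 ± 0.0657 (adjusted p = 0.0305) lost its call without SPT4-R3 replicate 2 (adjusted p = 0.0552) or 3 (0.120) and without wild-type replicate 1 (0.0834) or 2 (0.0933). UGT72E3, the third member of the subfamily, had overlapping values (4.90 to 5.11 and 4.78 to 4.93) and a difference of -0.15 that did not pass (adjusted p = 0.107); without wild-type replicate 2 it was called lower, at -0.21 (adjusted p = 0.0350). UGT72B3 had the widest scatter of the 47 genes by its SE of 0.147. Its signals ran from 6.66 to 7.11 in wild type against from 6.86 to 7.42 in SPT4-R3, with a difference of 0.18 that did not pass (adjusted p = 0.346).

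Of 23 other phenylpropanoid and monolignol genes listed, 5 were measured, with 2 higher, 1 lower and 2 that did not pass. The shares of all plant probe sets were 26.4% higher and 23.5% lower. HCT, an acyltransferase on the way to coniferyl and sinapyl units, fell by 0.61 ± 0.0545 (SE), from 11.4 to 10.8. BGLU46, of a beta-glucosidase group that can remove glucose from monolignol glucosides, rose by 0.50 ± 0.0555 to 5.30 ± 0.0529 (SD, n = 3). CCR2, a cinnamoyl-CoA reductase, rose by 0.27 ± 0.0681.

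The flavonoid genes of the UGT78 family rose, apart from the dim UGT78D3. UGT78D1 (AT1G30530), which adds rhamnose to flavonols, read 9.20, 9.35 and 9.21 in wild type against 9.59, 9.56 and 9.56 in SPT4-R3. UGT78D2 (AT5G17050), which adds glucose to flavonols and anthocyanidins, read 9.09, 8.96 and 9.09 in wild type against 9.62, 9.59 and 9.61 in SPT4-R3. In both genes every SPT4-R3 array was above every wild-type array. The rises were 0.32 ± 0.0578 (SE, 1.25-fold, adjusted p = 0.00110) for UGT78D1 and 0.56 ± 0.0561 (1.47-fold, adjusted p = 1.67e-05) for UGT78D2. UGT78D3 (AT5G17030), which adds arabinose to flavonols, read 4.48 to 4.85 in wild type against 4.43 to 4.50 in SPT4-R3. The ranges overlapped, and the difference of -0.16 (adjusted p = 0.150) passed only without wild-type replicate 2 among the 6 arrays left out in turn, at -0.24 (adjusted p = 0.0404). Of 25 other flavonoid genes listed, 4 were measured, with 2 lower and 2 that did not pass. Among all plant probe sets 23.5% were called lower. CHIL, a chalcone isomerase-like protein of flavonoid synthesis, fell 2.14-fold, from 8.56 to 7.46 on the log2 scale (SE of the difference 0.0532). DFR, a reductase of anthocyanin synthesis, fell by 0.64 ± 0.0914. BAN and AT5MAT read 4.45 to 5.16 and differed by 0.06 and 0.04, neither past the threshold.

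The pair of cytokinin N-glucosyltransferase genes, which inactivate cytokinins by putting glucose on a ring nitrogen, went in opposite directions. UGT76C2 (AT5G05860) read 8.81, 8.75 and 8.83 in wild type against 9.40, 9.31 and 9.45 in SPT4-R3. UGT76C1 (AT5G05870), its neighbour, read 7.63, 7.60 and 7.84 in wild type against 7.13, 7.14 and 7.24 in SPT4-R3. Each gene separated the genotypes without overlap. UGT76C2 rose by 0.59 ± 0.0572 (SE, 1.51-fold, adjusted p = 1.33e-05) and UGT76C1 fell by 0.52 ± 0.0722 (1.43-fold, adjusted p = 0.000174). The difference between the 2 changes was not tested, and on the bioB, bioC and bioD scale that of UGT76C1 was -0.13 and not called (adjusted p = 0.242). UGT73C1 (AT2G36750), which can put glucose on the side chain of cytokinins, read 3.93 to 4.16 in wild type against 4.17 to 4.23 in SPT4-R3. These dim values did not overlap, yet the difference of 0.17 did not pass the test (adjusted p = 0.0591); it passed without wild-type replicate 3, at 0.23 (adjusted p = 0.0151). None of the 18 other cytokinin metabolism genes listed was analysed here.

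UGT74D1 (AT2G31750), which glucosylates auxins, read 9.78, 9.89 and 9.92 in wild type against 9.42, 9.32 and 9.32 in SPT4-R3. It had the second highest signal of the 47 genes, and its genotypes did not overlap. UGT74D1 fell by 0.51 ± 0.0595 (SE, 1.42-fold, adjusted p = 5.05e-05), but by 0.12 with no call when the arrays were centred on bioB, bioC and bioD (adjusted p = 0.282). UGT84B1, an enzyme for indole-3-acetic acid, read 3.92 to 4.29 over the 6 arrays and differed by -0.13 without passing (adjusted p = 0.183). Of 15 other genes listed for auxin conjugation and oxidation, 5 were measured, with 3 lower, 1 higher and 1 that did not pass. The shares of all plant probe sets were 23.5% lower and 26.4% higher. GH3.17, whose enzyme joins auxin to amino acids, fell by 0.69 ± 0.0553, and its relative WES1 fell by 1.69 ± 0.0756. AT1G14120 fell by 1.05 ± 0.0924, while its neighbour AT1G14130 rose by 0.42 ± 0.0996.

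UGT71C5, UGT71B6 and UGT71B8, genes for glucosylation of abscisic acid, did not pass the test. UGT71C5 (AT1G07240), the main such enzyme, read 7.54, 7.48 and 7.50 in wild type against 7.48, 7.69 and 7.54 in SPT4-R3. The values were intermixed, with a difference of 0.06 ± 0.0639 (SE, adjusted p = 0.450). UGT71B6 (4.56 to 4.71 over the 6 arrays) and UGT71B8 (4.70 to 5.19) differed by -0.007 and -0.12 (adjusted p of 0.940 and 0.383). Both lay in the second signal class, and AT3G21790, which lies between them, was not analysed here. The 1 measured gene of 15 listed for abscisic acid metabolism, BGLU33, encodes a vacuolar beta-glucosidase that frees the hormone from its glucose ester. It fell by 2.96 ± 0.0716, or 7.76-fold, from 8.93 to 5.98 (adjusted p = 1.38e-09).

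Among genes for salicylic acid and related defence compounds, UGT74F1 (AT2G43840), which forms salicylic acid glucoside, read 5.92, 5.53 and 5.88 in wild type against 6.19, 6.23 and 6.26 in SPT4-R3. The wild-type arrays were spread and all lay below the close SPT4-R3 values. UGT74F1 rose by 0.45 ± 0.0941 (SE, 1.37-fold, adjusted p = 0.00260). UGT71C3 (AT1G07260), which glucosylates methyl salicylate, read 4.67, 4.56 and 4.40 in wild type against 4.66, 4.75 and 4.85 in SPT4-R3. Of the 26 called genes it was the 1 whose genotypes overlapped. Its rise of 0.21 ± 0.0783 (adjusted p = 0.0477) was not called without SPT4-R3 replicate 2 (adjusted p = 0.112) or 3 (0.174), nor without wild-type replicate 2 (0.0886) or 3 (0.173). UGT76B1, which glucosylates isoleucic acid, salicylic acid and N-hydroxypipecolic acid, read 4.85 to 5.07 and differed by 0.02 (adjusted p = 0.861). UGT76D1, which glucosylates dihydroxybenzoic acids made from salicylic acid, read 4.61 to 4.78 in wild type against 4.40 to 4.56 in SPT4-R3. Its difference of -0.18 just missed the threshold (adjusted p = 0.0528), though the genotypes did not overlap, and without wild-type replicate 3 it was called at -0.21 (adjusted p = 0.0487). Of 18 other salicylic acid genes listed, SAG101, a partner in defence signalling, rose by 0.47 ± 0.0789, and BSMT1, a methyltransferase at the level of the trp controls, differed by 0.09 without passing.

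UGT74B1 (AT1G24100), which adds the glucose of the glucosinolate core, read 8.76, 8.86 and 8.70 in wild type against 9.25, 9.27 and 9.21 in SPT4-R3. The genotypes were apart by more than the range within either, and it rose by 0.47 ± 0.0580 (SE, 1.39-fold, adjusted p = 7.57e-05). Of 31 other glucosinolate genes listed, 2 were measured. GSTU20, a glutathione transferase of the pathway, rose by 0.35 ± 0.0806, and BCAT4, which starts the chain elongation of methionine, fell by 2.11 ± 0.0827. UGT80B1 (AT1G43620), a sterol glucosyltransferase, read 6.12, 6.21 and 6.22 in wild type against 6.70, 6.78 and 6.83 in SPT4-R3. It too separated the genotypes, with a rise of 0.59 ± 0.0578 (adjusted p = 1.5e-05). None of the 9 sterol synthesis or 12 brassinosteroid genes listed was analysed here. The 1 measured gene of 24 for UDP-sugar supply, USP, read 8.33 to 8.60 and differed by 0.06 without passing. GSTU25, the 1 measured of 11 genes listed for the response to foreign compounds, fell by 0.58 ± 0.0970.

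The rest of the UGT71 family held the largest rise and the largest fall of the 47 genes. UGT71B1 (AT3G21750) read 7.42, 7.42 and 7.35 in wild type against 8.79, 8.75 and 8.84 in SPT4-R3. UGT71C4 (AT1G07250) read 8.86, 8.87 and 8.79 in wild type against 7.94, 8.09 and 8.01 in SPT4-R3. Replicates of both lay within 0.15 of each other, well inside the distance between genotypes. UGT71B1 rose by 1.40 ± 0.0533 (SE, 2.63-fold, adjusted p = 2.21e-08) and UGT71C4 fell by 0.83 ± 0.0581 (1.77-fold, adjusted p = 1.36e-06). UGT71C2 rose by 0.31 ± 0.0642 from 4.77 to 5.08. UGT71B5 and UGT71C1 did not pass, with differences of -0.11 and -0.02.

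The UGT85 family, related to the trans-zeatin enzyme UGT85A1, which was not analysed here, had 3 of 5 genes higher and 2 that did not pass. Of all plant probe sets, 26.4% were called higher. UGT85A3 (AT1G22380) read 5.22, 5.30 and 4.89 in wild type against 6.59, 6.27 and 6.35 in SPT4-R3. Despite the low value of wild-type replicate 3 and the high one of SPT4-R3 replicate 1, the groups were far apart. It rose by 1.27 ± 0.113 (SE, 2.41-fold, adjusted p = 7.11e-06). UGT85A5 (AT1G22370) rose by 0.53 ± 0.0937, from 5.84 ± 0.132 (SD, n = 3) to 6.37 ± 0.171, and UGT85A2 (AT1G22360) by 0.43 ± 0.0834, from 8.14 ± 0.0608 to 8.57 ± 0.172. Neither pair of groups overlapped. UGT85A7 read 5.80 to 5.88 in wild type against 5.75 to 5.84 in SPT4-R3, with a difference of -0.05 (adjusted p = 0.515). UGT85A4, which lies apart from the other genes, differed by 0.20 without passing (adjusted p = 0.138), with SPT4-R3 replicate 2 at 7.57 and the other 5 arrays at 7.06 to 7.17.

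UGT87A2 (AT2G30140), a gene known to affect flowering time, read 8.88, 8.96 and 8.94 in wild type against 9.52, 9.57 and 9.53 in SPT4-R3. The genotypes were tight and apart, with a rise of 0.61 ± 0.0517 (SE, 1.53-fold, adjusted p = 4.83e-06). UGT88A1 (AT3G16520), with the highest signal of the 47 genes, read 11.15, 11.09 and 11.09 in wild type against 11.23, 11.37 and 11.23 in SPT4-R3. The groups did not overlap, but the rise of 0.17 ± 0.0583 (adjusted p = 0.0370) was not called without SPT4-R3 replicate 2 (adjusted p = 0.132) or 3 (0.0501) and without wild-type replicate 2 (0.0889) or 3 (0.0959).

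The UGT73 family had the smallest share of calls among the groups with at least 3 genes, 2 of 7 (28.6%), against 49.9% of all plant probe sets. UGT73C1, UGT73C2 and UGT73D1 lay in the lowest signal class, where 5.54% of all plant probe sets rose and 8.77% fell. Several UGT73 members are known for induction by pathogens and oxidative stress. UGT73B1 (AT4G34138) read 7.76, 7.83 and 7.90 in wild type against 7.60, 7.45 and 7.60 in SPT4-R3. The groups did not overlap, and it fell by 0.28 ± 0.0636 (SE, adjusted p = 0.00424), but turned to 0.11 on the bioB, bioC and bioD scale. UGT73C7 (AT3G53160), which acts on hydroxycinnamic acids in immunity, read 4.56, 4.84 and 4.61 in wild type against 4.87, 5.03 and 4.87 in SPT4-R3. Wild-type replicate 2 came within 0.03 of the SPT4-R3 range. The rise of 0.25 ± 0.0812 (adjusted p = 0.0255) lost its call without SPT4-R3 replicate 2 (adjusted p = 0.109) and without wild-type replicate 1 (0.0917) or 3 (0.0936). UGT73B4 and UGT73B5 each differed by -0.12, and UGT73C2 and UGT73D1 by -0.06 and -0.08, none past the threshold.

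Of the UGT76E genes, UGT76E11 (AT3G46670), which can glucosylate flavonoids, rose by 0.39 ± 0.0589 (SE, 1.31-fold, adjusted p = 0.000311). Its arrays read 7.12, 7.15 and 7.18 in wild type against 7.45, 7.62 and 7.55 in SPT4-R3, with no overlap. UGT76E1 (AT5G59580), which glucosylates hydroxylated jasmonic acid, read 4.23, 4.17 and 4.02 in wild type against 4.0, 3.98 and 3.88 in SPT4-R3. The nearest arrays of the genotypes were 0.02 apart. Its fall of 0.19 ± 0.0672 (adjusted p = 0.0417) was called without wild-type replicate 3, while leaving out wild-type replicate 1 or 2 gave adjusted p of 0.128 and 0.108, and leaving out SPT4-R3 replicate 1, 2 or 3 gave 0.0597, 0.0788 and 0.148. It turned to 0.21 on the bioB, bioC and bioD scale. UGT76E2 read 5.15 to 5.41 and differed by -0.07.

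Many UGT genes lie side by side. In the gene order of the RefSeq table (TAIR10.1), 31 of the 47 genes stood in 13 runs, in which consecutive genes had at most 3 other protein-coding genes between them. Of the 18 pairs of consecutive genes, 14 had none between. Both genes rose in 3 pairs, neither was called in 4, 1 of the 2 was called in 8, and the calls were opposite in 3. Calls thus differed in 61.1% of the 18 pairs, close to the 61.6% of all 1081 pairs that the 47 genes can form. The opposite pairs were UGT71C4 and UGT71C3, UGT84A1 and UGT84A3, and UGT76C2 and UGT76C1. The calls of UGT71C3 and UGT84A1 are those lost with several single arrays left out, as given above, and on the bioB, bioC and bioD scale only UGT71C4 of the 3 falling members was still called lower. In the run of UGT85A7, UGT85A2, UGT85A5 and UGT85A3 the differences were -0.05, 0.43, 0.53 and 1.27. In the run of UGT84A1, UGT84A3 and UGT84A4 they were -0.21, 0.66 and 1.19. UGT71B1 rose by 1.40 while UGT71B6 and UGT71B8, in the same run, differed by -0.007 and -0.12, with signals in the second class. Near copies of a gene can share probe matches, which was not tested.

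**Figure D4:**
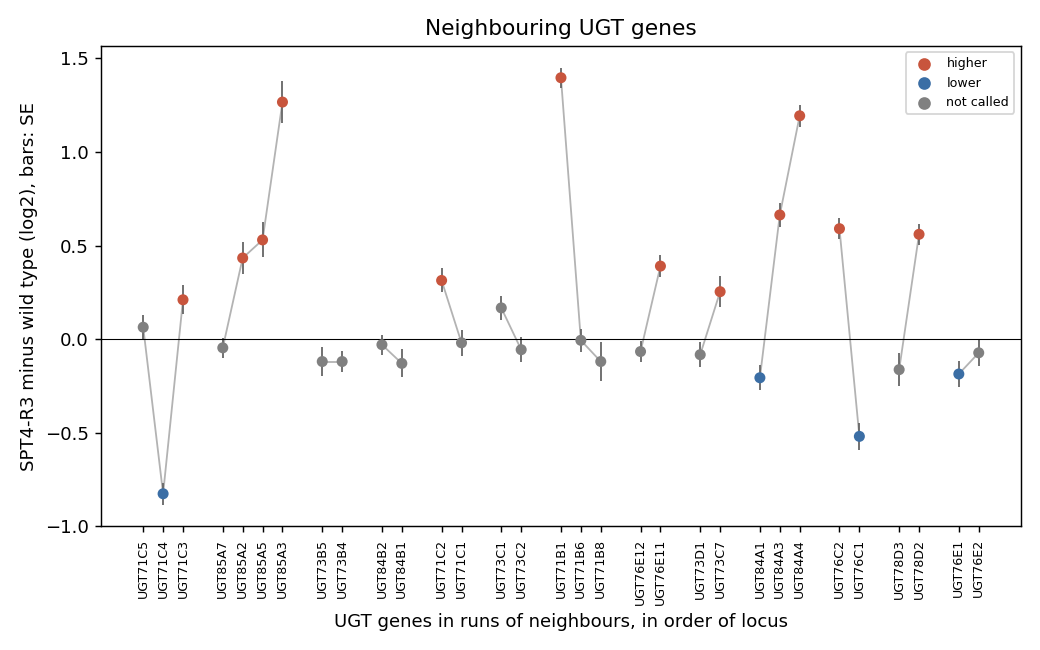
Difference between genotypes, as SPT4-R3 minus wild type on the log2 scale with SE, for the 31 UGT genes in runs of neighbours; grey lines join genes of 1 run in order of locus, and colours give the call. The difference climbs from -0.05 to 1.27 along the UGT85A run and from -0.21 to 1.19 along the UGT84A run, and UGT76C2 and UGT76C1 lie on opposite sides of 0.

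The plot of difference against signal sets each gene beside the middle 80% of plant probe sets of like signal. Outside that band lay 7 of the 47 UGT genes (14.9%), against 19.9% of all plant probe sets, a share that the band's construction sets. UGT71B1, UGT85A3, UGT84A4, UGT72E1 and UGT73C1 lay above it, at 1.40, 1.27, 1.19, 0.69 and 0.17, of which UGT73C1 was not called. UGT71C4 and UGT76C1 lay below it, at -0.83 and -0.52.

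**Figure D5:**
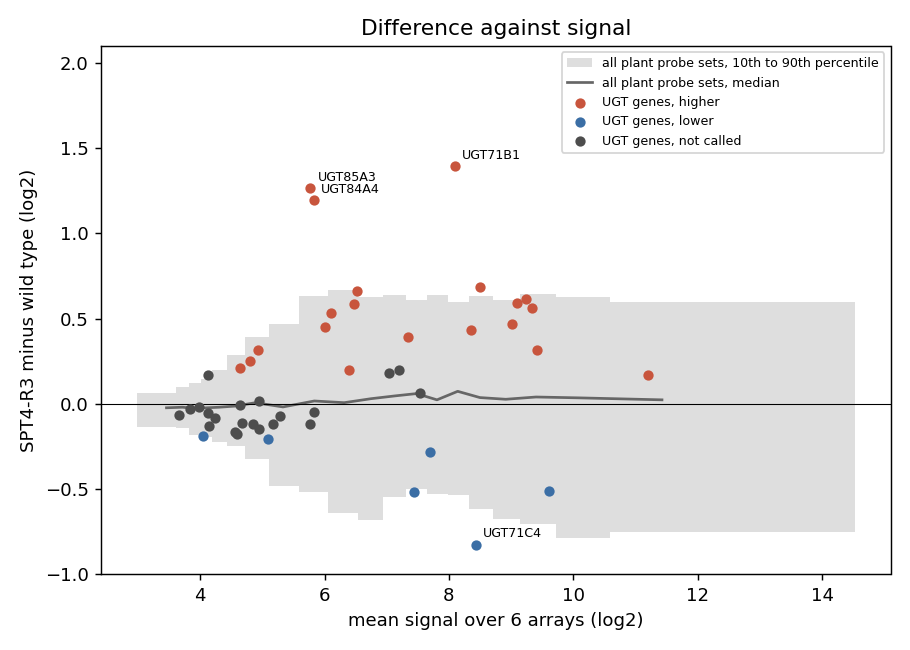
Difference between genotypes (log2) against mean signal over 6 arrays (log2) for the 47 UGT genes, coloured by call; the grey band spans the 10th to 90th percentile of all plant probe sets in bins of like signal and the line is their median. The 5 genes above the band are UGT71B1, UGT85A3, UGT84A4, UGT72E1 and UGT73C1, and the 2 below it are UGT71C4 and UGT76C1; the 4 farthest from 0 are named in the plot.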

How the data were processed

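The deposited table holds 1 value per probe set for 6 arrays, 3 per genotype. Per the labels' protocols, total RNA was made into biotinylated cRNA by the standard Affymetrix protocol. Per the submitters' processing notes the software was Affymetrix Expression Console; algorithm, background correction and normalization are not stated there. The deposited values were read as log2 signals from their range and spread. Of 22810 probe sets, 64 array controls were left out and 22746 tested, of which 13513 had 1 gene in the annotation table, 503 several and 8730 none. Genes were named through the Entrez identifier in a RefSeq table (TAIR10.1), which held 13436 of the 13513. No detection call was used, and the number of arrays limits the precision.

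The comparison of genotypes used limma 3.58.1 under R 4.3.3 (lmFit, eBayes) on all 22746 plant probe sets without filter, two-sided, with Benjamini-Hochberg adjustment over all of them at a threshold of 0.05. Each SE comes from the moderated fit. The procedure was also run on simulated arrays, with an outcome not given here. Their noise was independent between probe sets and held no shift between arrays, so that run does not bear on the scale. Control means were compared with exact permutation tests (scipy 1.17.1), which cannot go below p = 0.1 for 3 arrays against 3. The members and gene lists were chosen with earlier results of these data known. Values on every array are given for the 6 largest rises and the 6 falls without overlap, the brightest and dimmest genes where called, and genes with a known substrate. From each list up to 4 genes past the threshold are named, or 2 where none passed. The closing section gives the alternatives.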

Additional observations from a re-analysis of the deposited data

How the results depend on the processing

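Under quantile normalization, under centring on array medians, without identifiers that mark shared probes, in limma with trend and robust settings and with probe sets averaged per gene there were between 18 and 21 UGT genes higher and 5 to 7 lower. With each array left out in turn 16 to 20 were higher, 4 to 7 lower and the median difference was 0.02 to 0.087. Without the dimmest 30% of probe sets 34 UGT genes remained, with a median of 0.23. Against a change of 0.5 on the log2 scale (treat), 4 UGT genes were higher and 1 lower, against 5.28% and 5.37% of all plant probe sets. Among pathway genes 0 were higher under treat, against 5 in limma without that margin. Centring on dap, lys, phe and thr gave 23 higher and 3 lower UGT genes, against 30.4% and 10.9% of all plant probe sets. The median of the UGT genes was 0.21 there. Centring on bioB, bioC and bioD gave 41 higher, 1 lower, a median of 0.46 and 12 higher pathway genes, because it adds 0.39 to every difference. It turned UGT73B1 to 0.11, UGT76E1 to 0.21 and UGT84A1 to 0.19, none of them called, and turned genes not called on the deposited scale to called rises, UGT71B5 (0.28), UGT71B6 (0.39), UGT71B8, UGT73B4 and UGT73B5 (0.27 each), UGT71C1 (0.37), UGT72E3 (0.25), UGT73C2 (0.34), UGT73D1 (0.31), UGT76D1 (0.22), UGT76E2 (0.32), UGT76E12 (0.33), UGT78D3 (0.23), UGT84B1 (0.26), UGT84B2 (0.36), UGT85A7 (0.35) and ALDH2C4 (0.31). UGT71C5 (0.46), UGT72B3 (0.57), UGT73C1 (0.56), UGT76B1 (0.41) and UGT85A4 (0.59), positive but not called on the deposited scale, also became called rises. So did further pathway genes, such as BAN (0.45). Of the 21 UGT genes not called on the deposited scale, 0 stayed so under both control references. The replicate block gave 18 higher and 5 lower UGT genes. The labels do not say whether replicate numbers pair the arrays. Deviations of same-numbered arrays correlated at -0.24, -0.13 and -0.06, and those of differently numbered arrays at -0.10 to 0.20. With 3 arrays per genotype these values cannot settle the pairing. Signal over background limits the 8 genes of the lowest signal class.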

Other observations

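Besides the 47 genes, 4 genes carry a UGT number only as a synonym in the RefSeq table and have a single-gene probe set. GT72B1 (AT4G01070, UGT72B1), which glucosylates monolignols and chlorinated foreign compounds, read 9.38, 9.58 and 9.44 in wild type against 9.80, 9.81 and 9.80 in SPT4-R3. It rose by 0.34 ± 0.0616 (SE, adjusted p = 0.00111 in limma) with no overlap. SGT (AT3G07020, UGT80A2), a sterol glucosyltransferase like UGT80B1, rose by 0.15 ± 0.0567, from 8.18 to 8.34 (adjusted p = 0.0462). UF3GT (AT5G54060, UGT79B1), which extends the sugar chain of anthocyanins, read 6.80, 6.84 and 6.81 in wild type against 6.53, 6.39 and 6.45 in SPT4-R3. It fell by 0.36 ± 0.0554 (adjusted p = 0.000355). AT5G54010 (UGT79B6) read 4.06 to 4.47 and differed by -0.21 without passing (adjusted p = 0.0559).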
